A study of Mus musculus with 12 samples.

Results

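The projection neuron identity factors examined here are 9 transcription factor genes of the developing mouse cortex: Bcl11b, Fezf2, Tbr1, and Sox5, which mark deep layers, Cux1, Cux2, and Rorb, which mark upper layers and layer IV, and Bcl11a and Foxp1, which are found in several layers. Their members were all regions (peaks) of 5-methylcytosine (5mC) and 5-hydroxymethylcytosine (5hmC) that the deposited tables assign to one of these gene symbols. These were 53 of 55085 5mC peaks and 57 of 47478 5hmC peaks, and 8 of the 9 genes had at least 1 peak, whereas no peak carried the symbol Bcl11a. The cells came from cortices of Btg2RFP/Tubb3GFP double heterozygous mouse embryos at E14.5 (embryonic day) and carried both fluorescent reporters in all groups. They were sorted into neuronal stem cells (Btg2-/Tubb3-), called proliferative progenitors or PP, neurogenic progenitors (Btg2+/Tubb3-), called differentiating progenitors or DP, and neurons (Tubb3+), called N. The series holds 12 samples, 6 immunoprecipitates and 6 inputs, with 1 of each for every cell type and mark. Neurons were sorted by GFP irrespective of RFP, so each sorted population was defined by these reporters only and neurons of all cortical layers born by that day were sorted together.

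Cortical projection neurons are glutamatergic neurons that acquire their layer and their axonal target through mutually repressive transcription factors. Fezf2 and its target Bcl11b (also called Ctip2) specify neurons projecting to the spinal cord and brainstem, Tbr1 specifies neurons projecting to the thalamus, and Sox5 times the succession of deep layer subtypes. Cux1 and Cux2 are homeodomain proteins of upper layer neurons that shape their dendrites, Rorb is a nuclear receptor of layer IV, and Bcl11a and Foxp1 act in neurons of more than one layer. 5mC is the main DNA methylation mark of the genome, and 5hmC is made from it by Tet enzymes, is abundant in neurons, and can be a step toward an unmethylated cytosine.

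The tables give, for every peak, 1 level per cell type. This level is log2 of the normalized read level of the peak averaged over replicates by the authors, and the paper states 3 biological replicates per cell type. No replicate, count, or input value was at hand, so no replicate error or p-value can be given for any value here, and the depth behind them is unknown. A change between cell types is the difference between their mean log2 levels minus the median difference over all peaks of that mark, so that 0 stands for the median peak, and a peak was counted as lower or higher when the change was at least 1.5-fold. The subtracted median was -0.0040 (PP to DP), -0.18 (DP to neurons), and -0.17 (PP to neurons) for 5mC and -0.0035, -0.023, and -0.081 for 5hmC. In the deposited expression values, all 7 of 8 listed PP markers that had a value were highest in PP, all 6 DP markers in DP, and all 5 of 7 listed neuron markers that had a value in neurons. All 5 interneuron markers with a value were also highest in neurons, with a summed expression value of 981.5 for PP, 3687 for DP, and 10781 for neurons, whereas the summed values of 5 endothelial and pericyte markers (1547, 707, and 139), 2 microglial markers (309, 189, and 74.9), and 4 oligodendrocyte lineage markers (335, 449, and 36.1) were lowest in neurons. Their part in the values below was not tested. In such sorted pools, a lower share of cells carrying a mark or a transcript and a lower amount per cell cannot be told apart.

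Neither mark had a peak in the RefSeq promoter windows of these genes, and the bases concerned are shown for that reason. In RefSeq promoter windows (250 bases before to 50 after a transcription start site, TSS, build GRCm38.p6), the 9 genes had 13 windows, and 0 of these overlapped a 5mC or a 5hmC peak. Among all 32851 windows, 1.11% overlapped a 5mC peak and 1.26% a 5hmC peak. The windows follow the start sites of RefSeq transcripts, which can differ from the TSS used for distances in the tables. They covered that TSS for Bcl11b, Fezf2, and Rorb. The nearest window lay 1273 bp from it for Tbr1, 1259 bp for Cux1, 1478 bp for Foxp1, and 834621 bp for Sox5. The tables give Cux2 2 TSS positions, 1 bp from a window for 9 of its peaks and 188808 bp away for the other 29. The 250 bases before a RefSeq start site are printed 5′ to 3′ for the 3 genes whose peaks had lower 5mC in neurons than in PP, with every CG dinucleotide in capitals. They lie at chr12:108003415-108003664 on the minus strand for Bcl11b, at chr2:61804203-61804452 on the plus strand for Tbr1, and at chr5:122049852-122050101 on the minus strand for Cux2. All 3 stretches lie inside the RefSeq span of their gene, whose 5′ end is at 108004145 for Bcl11b, 61802863 for Tbr1, and 122050415 for Cux2.
Bcl11b: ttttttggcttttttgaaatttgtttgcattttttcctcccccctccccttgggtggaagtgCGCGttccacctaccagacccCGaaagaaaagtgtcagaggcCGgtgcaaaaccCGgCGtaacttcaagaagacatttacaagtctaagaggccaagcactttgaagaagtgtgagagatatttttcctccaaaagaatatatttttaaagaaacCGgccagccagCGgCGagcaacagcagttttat
Tbr1: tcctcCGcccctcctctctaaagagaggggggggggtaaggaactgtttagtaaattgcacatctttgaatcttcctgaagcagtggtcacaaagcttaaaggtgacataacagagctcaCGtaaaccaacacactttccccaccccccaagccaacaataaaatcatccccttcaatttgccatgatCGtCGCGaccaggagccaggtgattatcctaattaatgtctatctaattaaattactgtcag
Cux2: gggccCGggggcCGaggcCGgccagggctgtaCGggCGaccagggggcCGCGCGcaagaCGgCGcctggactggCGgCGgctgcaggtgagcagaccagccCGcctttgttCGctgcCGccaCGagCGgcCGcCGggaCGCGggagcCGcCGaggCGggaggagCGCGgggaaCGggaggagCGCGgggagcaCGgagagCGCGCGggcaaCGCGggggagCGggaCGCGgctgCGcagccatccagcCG

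The Cux2 window held 40 CG dinucleotides, and only 1.31% of all windows held as many. Bcl11b had 9 and Tbr1 had 5, close to the median of 6 over all windows. The nearest 5hmC peak lay 15 bp from the Cux2 window and the nearest 5mC peak 1522 bp from it. For Bcl11b these distances were 4985 bp and 7691 bp, and for Tbr1 they were 10450 bp and 63021 bp. Within 2000 bp of the deposited TSS, the members were all peaks of Cux2, and their values are given with that gene.

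All 4 deep layer genes had their highest expression value in neurons. Tbr1, a T-box factor of the earliest projection neurons, had values of 419.6 for PP, 6348 for DP, and 39085 for neurons, which is 92.9-fold higher in neurons than in PP on the scale of value plus 1. Bcl11b, a zinc finger factor, had values of 1528, 6361, and 51072, a difference of 33.4-fold. Sox5, an SRY-box factor, had values of 3543, 5978, and 41786, a difference of 11.8-fold, most of it between DP and neurons (6.99-fold). Fezf2, a zinc finger factor already transcribed in progenitors, had values of 4835, 7310, and 15853, a difference of 3.28-fold.

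The upper layer and layer IV genes did not share a pattern. Cux2 had values of 1808 for PP, 5178 for DP, and 13213 for neurons, 7.31-fold higher in neurons than in PP. Cux1 was the only one of the 8 genes with a lower value in neurons than in PP, with 8648, 8287, and 4176, a difference of 2.07-fold. Rorb had values of 819.7, 422.7, and 1096 and was lowest in DP. Foxp1, of several layers, had values of 2440, 2695, and 4361, a difference of 1.79-fold. The median log2 ratio of neurons over PP was 2.29 over the 8 genes and -0.0087 over all 16293 genes in the tables. Values of different genes should not be ranked against each other, because the tables do not say whether they are scaled to transcript length.

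**Figure D1:**
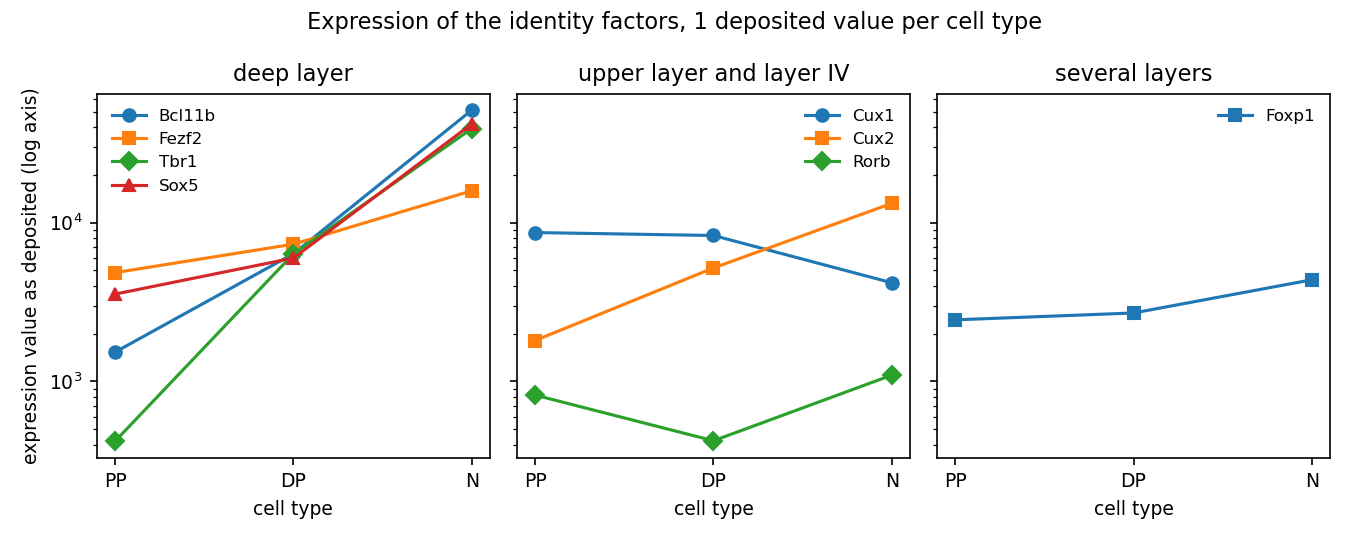
Expression values of 8 identity factors as deposited (log axis) in proliferative progenitors (PP), differentiating progenitors (DP), and neurons (N), 1 value per cell type without an error, in panels by layer. The lines of Bcl11b, Fezf2, Tbr1, Sox5, Cux2, and Foxp1 go up at both steps, the line of Rorb is lowest in DP, and that of Cux1 ends 2.07-fold below its start.

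At the peaks of the identity factors, 5mC was lower in neurons and 5hmC was higher, and the difference in 5mC lay mainly between DP and neurons. From PP to neurons, 17 of 53 5mC peaks were lower (32.1%, against 10.2% of all 5mC peaks) and 0 were higher (against 5% of all). The 17 were 8 of 21 peaks of Bcl11b, 8 of 17 of Cux2, and 1 of 2 of Tbr1, so the other members gave none. From DP to neurons, 16 were lower (30.2%, against 9.36%) and 2 were higher (3.77%, against 5.12%). From PP to DP, 5 were lower (9.43%, against 5.44%) and 0 were higher (against 4.6%). The median change of the 53 peaks was -0.10 from PP to DP, -0.28 from DP to neurons, and -0.33 from PP to neurons. Relative to the median peak, 43 of the 53 were below 0 from PP to neurons.

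For 5hmC, 22 of 57 peaks were higher in neurons than in PP (38.6%, against 22.1% of all 5hmC peaks) and 3 were lower (5.26%, against 7.71%). The 22 were 12 of 21 peaks of Cux2, 7 of 20 of Bcl11b, and 1 each of Cux1 (of 5), Foxp1 (of 6), and Rorb (of 4). From DP to neurons, 19 were higher (33.3%, against 16.5%) and 3 were lower (5.26%, against 7.07%). From PP to DP, 8 were higher (14%, against 11.2%) and 5 were lower (8.77%, against 4.68%). Median changes were 0.03 (PP to DP), 0.39 (DP to neurons), and 0.30 (PP to neurons), and 41 of the 57 peaks were above 0 from PP to neurons. Without the peaks of Cux2, the medians were -0.0065, 0.25, and 0.12, so the sign from PP to DP turned and the value from PP to neurons was more than 1.5 times lower.

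Peaks of low mean level over PP, DP, and neurons made up most of these counts. This mean includes neurons, so a lower level in neurons itself moves a peak toward the lower range. Of the 17 5mC peaks that were lower in neurons than in PP, 14 had a mean level below the median of the table (4.97). They were 14 of 26 member peaks in that lower range (53.8%, against 16.5% of all peaks in it), and 3 of 27 member peaks in the upper range (11.1%, against 3.99%). For 5hmC, 17 of 30 member peaks below the table median of 4.67 were higher in neurons (56.7%, against 31.1%), and 5 of 27 above it (18.5%, against 13.1%).

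**Figure D2:**
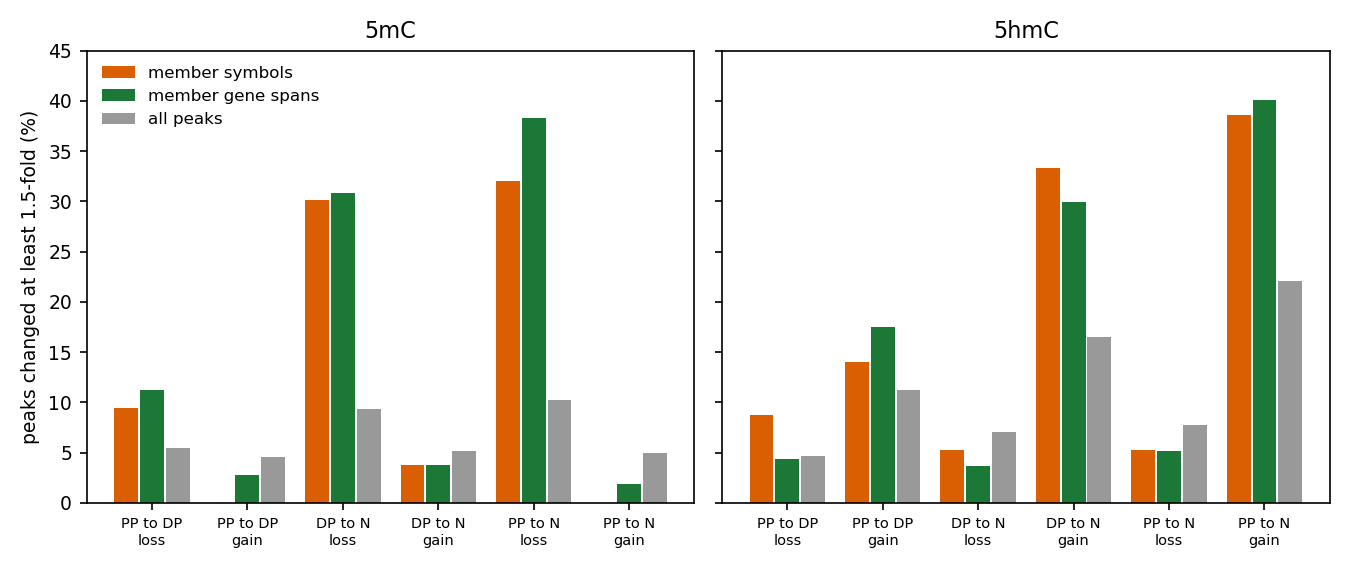
Share of peaks (%) at least 1.5-fold lower (loss) or higher (gain) between the mean levels of each pair of cell types, for 5mC and 5hmC, among peaks deposited under a member symbol (orange), peaks within the RefSeq span of a member gene (green), and all peaks (grey). The 5mC bars for loss reach 32.1% (orange) and 10.2% (grey) from PP to N, and the 5hmC bars for gain reach 38.6% and 22.1%.

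The 17 peaks with lower 5mC in neurons than in PP belonged to 3 genes, with 8 each for Bcl11b and Cux2 and 1 for Tbr1. Bcl11b had 21 5mC peaks, 10 inside its RefSeq span (chr12:107910403-108004145, minus strand), 9 upstream, and 2 downstream. Inside the span, all 10 peaks were below 0 from PP to neurons, 7 were lower by at least 1.5-fold, and the median change was -1.19. In contrast, none of the 9 peaks located 24.1 to 87.3 kb upstream was lower or higher, and their changes ran from -0.33 to 0.14 with a median of -0.20. Mean levels ran from 3.53 to 6.80 inside the span and from 4.21 to 6.84 upstream, but more peaks inside the span had low levels. Inside it, levels of 3.53, 3.70, 3.76, 4.36, 4.56, and 4.74 lay below the table median of 4.97, against 4.21 and 4.41 upstream. Of all 5mC peaks, 16.5% below the median level and 3.99% at or above it were lower, and the part of level in this contrast was not tested. Among all 5mC peaks deposited as inside a gene, 10.6% were lower from PP to neurons.

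The largest 5mC change in any peak under a member symbol was at chr12:107995021-107995198, 8492 bp inside Bcl11b from the deposited TSS. Its level was 4.65 for PP, 4.33 for DP, and 2.13 for neurons, a change of -2.34 or 5.07-fold. Its level in DP was thus close to that in PP and far from that in neurons. A neighboring peak at chr12:107995545-107995674 had levels of 4.03, 3.88, and 2.68. Further into the gene, the peak at chr12:107956977-107957121 had levels of 4.26, 4.47, and 2.56, and the peak at chr12:107984309-107984432 had levels of 5.02, 4.65, and 3.40. In both, as at the first site, the lowest level was that of neurons. At chr12:107933131-107933347, the level was 5.50 for PP, 4.82 for DP, and 3.91 for neurons, and this was the only Bcl11b peak that was also lower from PP to DP.

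5hmC in Bcl11b went both ways. Of its 20 5hmC peaks, 7 were higher and 2 were lower in neurons than in PP, and 6 of the 7 lay among the 16 peaks inside the gene. The largest increase was at chr12:107967739-107967871, with levels of 2.68 for PP, 3.22 for DP, and 4.64 for neurons (change of 2.04). The largest decrease was at chr12:107928860-107929025, with levels of 6.49, 5.78, and 4.77 (change of -1.63), which only 0.16% of all 5hmC peaks reached or passed. This peak had the highest level in PP of all 5hmC peaks of the gene. A second decrease was seen at chr12:108020303-108020484, 16792 bp upstream, with levels of 4.25, 4.51, and 3.40.

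The other deep layer genes had few peaks under their own symbol. Tbr1 had 2 5mC peaks, located 64675 and 65348 bp downstream of the TSS, and no 5hmC peak. At chr2:61867523-61867688, 5mC was 4.42 for PP, 4.74 for DP, and 2.28 for neurons (change of -1.96), whereas at chr2:61868130-61868428, it was 5.35, 5.64, and 4.92 (change of -0.26). In both of these neighboring peaks, DP had the highest level and neurons the lowest. Fezf2 had a single 5hmC peak at chr14:12349805-12349968, 4021 bp upstream of the TSS, with levels of 4.84, 5.18, and 4.34, lower from DP to neurons (change of -0.82) but within 1.5-fold from PP to neurons (-0.42). Sox5 had 3 5mC peaks near its 5′ end, none of which was lower or higher from PP to neurons. The largest of their changes was 0.55 at chr6:144768528-144768674, with levels of 4.70, 4.66, and 5.08.

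Cux2 had 17 5mC and 21 5hmC peaks, and almost all that differed did so in the same direction within each mark. From PP to neurons, 8 5mC peaks were lower and none was higher, and 12 5hmC peaks were higher and none was lower. The median change was -0.49 for 5mC and 0.97 for 5hmC. Among symbols with at least 10 peaks, 14 of 1020 had a median 5mC change as low as Cux2, itself included, and 24 of 980 had a median 5hmC change as high. For Bcl11b, these counts were 59 of 1020 for 5mC and 397 of 980 for 5hmC.

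The symbol Cux2 stood for a pair of gene records in the tables. One record had the expression values given above and a TSS at position 122050102 of chromosome 5, near the RefSeq 5′ end of the gene, with 3 5mC and 6 5hmC peaks. The other record had expression values of 79 for PP, 241.5 for DP, and 709.8 for neurons and a TSS at 121858968, 1006 bp inside the RefSeq 3′ end, and it held 14 5mC and 15 5hmC peaks. Of these, 13 and 15 lay within the RefSeq span of Cux2 (chr5:121857962-122050415, minus strand), although the tables place 13 5mC and 15 5hmC peaks upstream of that record. The peaks at the promoter end of Cux2 and those in its body are therefore described apart.

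At the promoter end, the 5mC peak at chr5:122051623-122051853, 1636 bp upstream of the TSS, had a level of 4.67 for PP, 4.42 for DP, and 2.65 for neurons (change of -1.85). The 5hmC peak that overlaps it, at chr5:122051525-122051677, had levels of 3.58, 4.32, and 5.13 (change of 1.63). From PP to DP, the change was 0.75 for 5hmC and -0.25 for 5mC at this pair. With 1 mean per cell type, an order in time cannot be read from it. The third peak within 2000 bp of this TSS was the 5hmC peak at chr5:122049621-122049787, 398 bp inside the gene, with levels of 4.67, 4.54, and 4.39 and no change of 1.5-fold. Near the TSS of the other record, a 5mC peak at chr5:121860306-121860428 had levels of 5.86, 5.86, and 5.04 (change of -0.64) and one at chr5:121857008-121857156 had levels of 6.52, 6.63, and 6.20 (change of -0.15).

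At 13584 bp upstream of the Cux2 TSS, the 5mC peak chr5:122063594-122063777 had a level of 4.91 for PP, 4.59 for DP, and 2.90 for neurons (change of -1.84). The overlapping 5hmC peak chr5:122063617-122063819 had levels of 0.74, 3.38, and 4.35, the largest 5hmC change of any peak under a member symbol (3.69). Its level in PP was the lowest of all member peaks and close to the lowest of the 5hmC table (-0.051), so this change depends on a value near the floor. Among peaks in the gene body deposited under the symbol Cux2, the largest 5hmC changes were 3.14 at chr5:121888989-121889122 (levels of 2.52, 3.89, and 5.57) and 2.56 at chr5:121905659-121905805 (levels of 2.31, 2.87, and 4.79), and the largest 5mC change was -1.25 at chr5:121906009-121906169 (levels of 5.35, 4.94, and 3.93).

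Rorb, Cux1, and Foxp1 showed few changes under their own symbols. Rorb had 8 5mC peaks, none of which was lower or higher from PP to neurons, with changes from -0.33 to 0.39. Its largest, at chr19:19145926-19146072, was a difference of 0.39 (levels of 6.74, 6.80, and 6.97), and the overlapping 5hmC peak at chr19:19145921-19146037 had levels of 3.94, 4.10, and 4.56 (change of 0.70). In another of its 4 5hmC peaks, at chr19:19031689-19031830, the level was 4.26 for PP, 3.20 for DP, and 4.51 for neurons. DP was lowest here, as in the expression values of Rorb, but its 4 5hmC peaks did not share this order. At chr19:19007244-19007432, DP was highest (4.44, 4.51, and 4.34), and the overlapping peak above rose at both steps. Cux1 had 1 5mC peak at chr5:136558636-136558797 (5.25, 5.33, and 4.88) and 5 5hmC peaks, of which 1 was higher (chr5:136511202-136511365, 3.63, 3.19, and 4.28, change of 0.74) and 1 lower (chr5:136471302-136471477, 5.03, 4.10, and 4.26, change of -0.69) in neurons than in PP. Foxp1 had 1 5mC peak at chr6:99540188-99540318 (3.99, 4.39, and 3.70) and 6 5hmC peaks, of which 1 was higher in neurons, at chr6:99510376-99510539 (3.98, 4.44, and 4.90, change of 1.01).

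**Figure D3:**
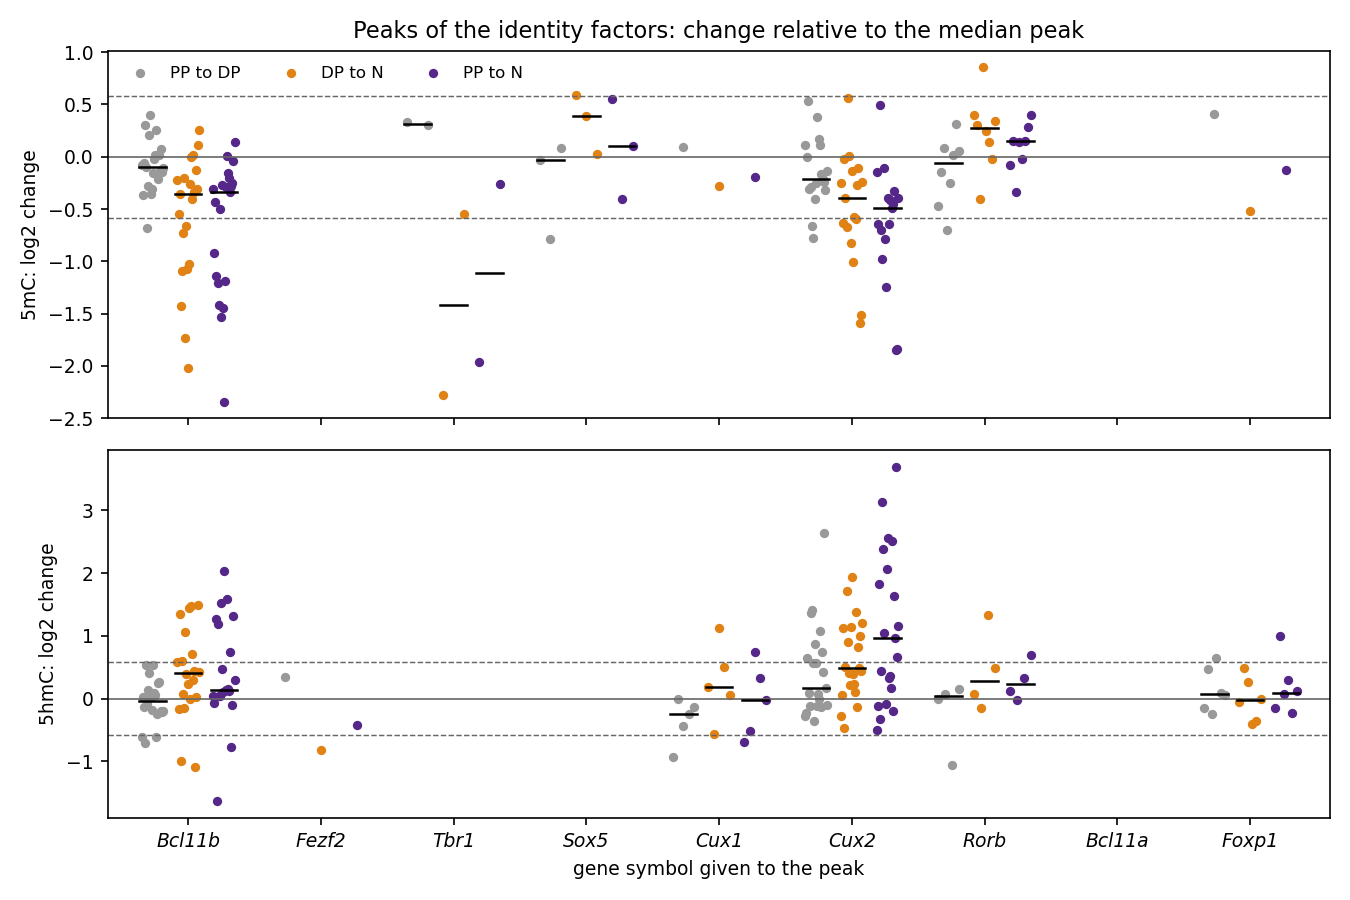
Log2 change of every peak deposited under a member symbol, relative to the median peak of the mark, for PP to DP (grey), DP to N (orange), and PP to N (purple), with 5mC above and 5hmC below. Points are peaks, black bars are medians where a gene has more than 1 peak, and dashed lines mark 1.5-fold. Bcl11b and Cux2 hold most points below the lower line for 5mC, and Cux2 reaches 3.69 for 5hmC.

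Peaks of the tables are assigned to the nearest TSS, and many peaks within these genes thus carry the symbol of a non-coding transcript. Within the RefSeq spans of the 9 genes lay 107 5mC and 137 5hmC peaks, whatever their symbol. Of these, 41 5mC peaks were lower and 2 were higher in neurons than in PP (38.3% and 1.87%), and 55 5hmC peaks were higher and 7 were lower (40.1% and 5.11%), beside the shares of 10.2%, 5%, 22.1%, and 7.71% over all peaks. This count was chosen after the values by symbol had been seen. The spans of Tbr1 and Fezf2, the shortest genes with 11.3 and 7.81 kb, held no peak of either mark.

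Sox5 differed most between both ways of counting. Its span (chr6:143828425-144782287, minus strand) held 30 5mC peaks, 28 of them deposited under 4933415D12Rik, a non-coding transcript. Of the 30, 20 were lower in neurons than in PP and 0 were higher, the median change was -0.66, and 28 were below 0. The largest change was at chr6:144129341-144129452, where 5mC was 4.92 for PP, 4.71 for DP, and 1.91 for neurons (-2.84). The next was at chr6:144076110-144076287, with levels of 4.11, 4.28, and 2.00. All 28 peaks deposited under the other symbol lay more than 534 kb from the RefSeq 5′ end, and the 2 peaks deposited under Sox5 itself were not among the 20. The 23 5hmC peaks of the span gave 7 higher and 3 lower, beside 22.1% and 7.71% over all 5hmC peaks. The largest change was at chr6:143855680-143855799 (levels of 1.14, 1.37, and 4.56). It depends on low levels in PP and DP, as the lowest of all 5hmC levels was -0.051 and the median in PP was 4.72.

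The span of Cux2 held 25 5mC and 35 5hmC peaks, of which 12 and 19 were deposited under Gm15637. Of the 25 5mC peaks, 9 were lower and none higher, and of the 35 5hmC peaks, 22 were higher and 1 was lower. Over all peaks, 10.2% of 5mC peaks were lower and 22.1% of 5hmC peaks were higher. The largest 5mC change was at chr5:121986010-121986136, with levels of 5.50 for PP, 4.57 for DP, and 2.17 for neurons (-3.16). With 13 5mC and 18.2 5hmC peaks per 100 kb, Cux2 held the most peaks of both marks for its length among the 9 genes, followed by Bcl11b with 10.7 and 17.1.

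Foxp1 held 25 5mC peaks in its span, all deposited under RP23-333F8.1, and they went both ways, with 4 lower and 2 higher and a median change of -0.07. Its 37 5hmC peaks gave 11 higher and none lower. Over all peaks, 10.2% of 5mC peaks were lower and 5% higher, and 22.1% of 5hmC peaks were higher and 7.71% lower. Cux1 held 9 5mC peaks with none lower or higher from PP to neurons. Its 18 5hmC peaks gave 7 higher and 2 lower, with the largest change at chr5:136273629-136273747 (levels of 1.90, 2.50, and 4.63). That change also starts from a low level in PP. Bcl11a, which had no peak by symbol and no expression value, held 2 5mC and 5 5hmC peaks in its span. At chr11:24119615-24119846, deposited under Gm12064, 5mC was 5.46 for PP, 4.93 for DP, and 4.41 for neurons (-0.88), and 5hmC of the overlapping peak chr11:24119668-24119873 was 5.17, 5.21, and 5.81 (0.72). The 6 5mC and 3 5hmC peaks of Rorb within its span held none that was lower or higher from PP to neurons.

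**Figure D4:**
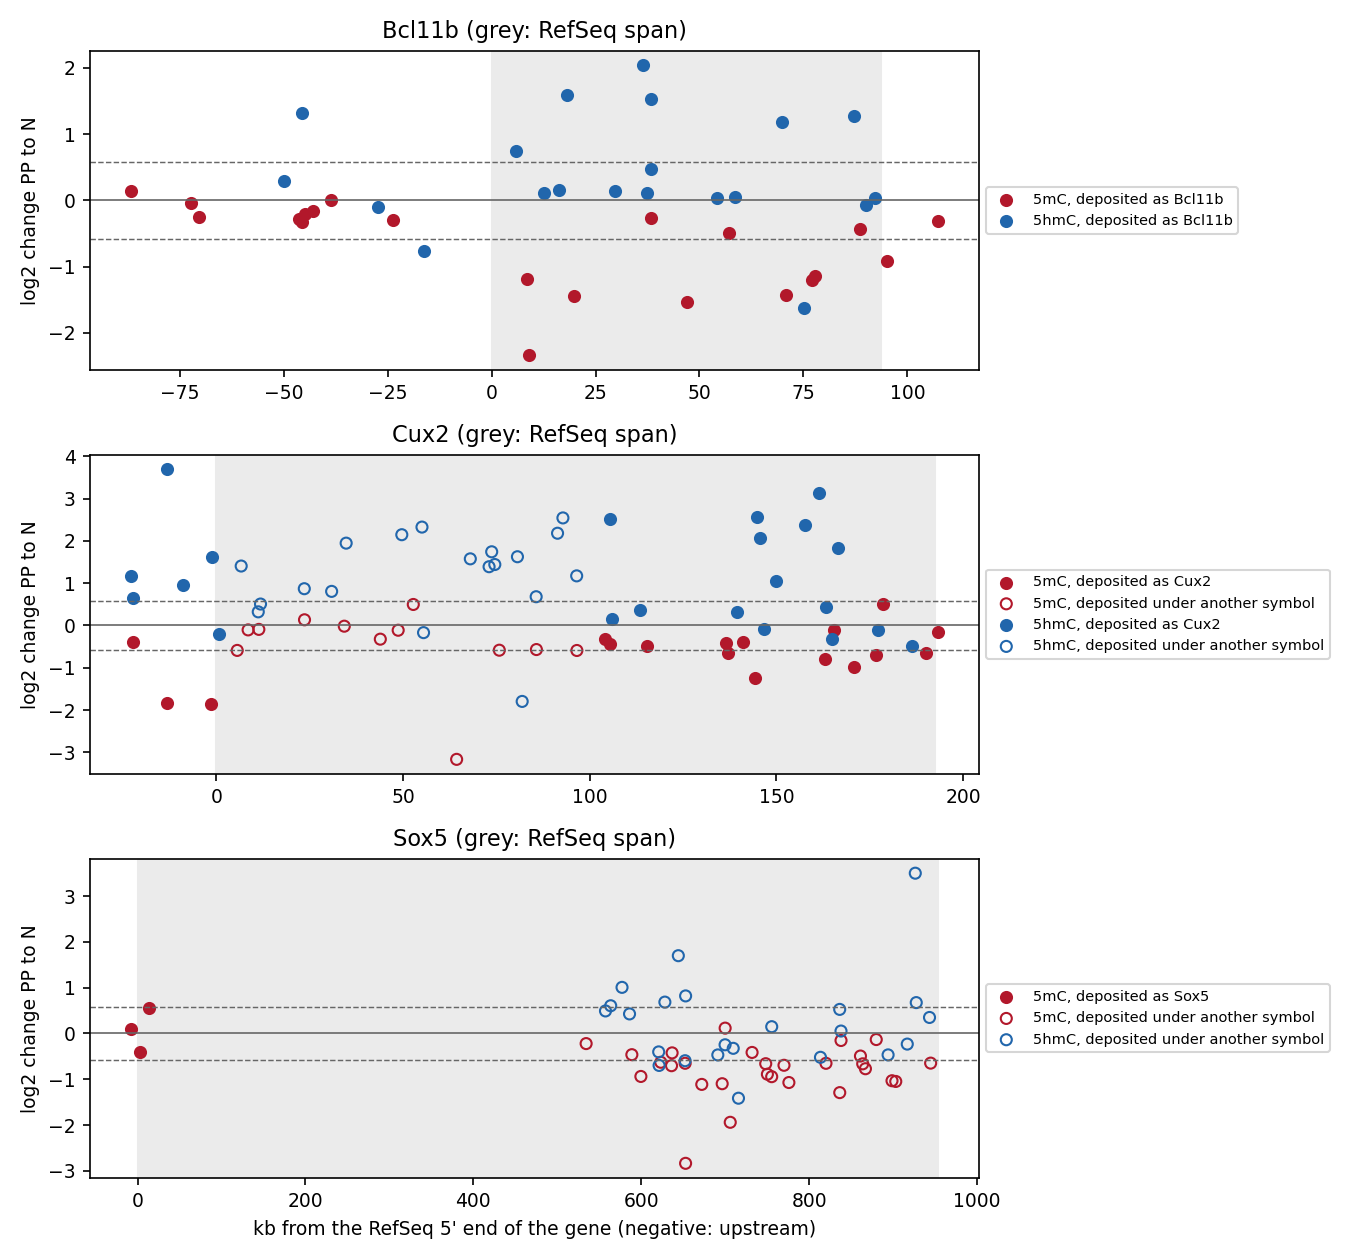
Log2 change from PP to N of 5mC (red) and 5hmC (blue) peaks by distance (kb) from the RefSeq 5′ end of Bcl11b, Cux2, and Sox5, with the RefSeq span in grey. Filled points carry the symbol of the gene, open points another symbol, and dashed lines mark 1.5-fold. In Bcl11b, red points below the lower line lie inside the span or just past its end, and in Sox5, they lie in the 3′ part of the span.

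Peaks of both marks that overlapped were then compared. Of 10 overlapping pairs under member symbols, 2 combined lower 5mC with higher 5hmC from PP to neurons (20%, against 18.8% of all 6727 pairs). Both were the pairs upstream of the Cux2 TSS described above. Whatever the size of the change, 5mC was below 0 and 5hmC above 0 in 8 of the 10 pairs (80%, against 51.5% of all pairs). The pairs are not separate sites throughout. The Bcl11b 5mC peak chr12:107965719-107965872 overlapped both chr12:107965689-107965796 and chr12:107965814-107965949, and both of these pairs are among the 8. From DP to neurons, 3 pairs combined lower 5mC with higher 5hmC (30%, against 12.5%), and from PP to DP, 0 did (against 3.20%). The third pair, which met both limits only from DP to neurons, lay in Bcl11b at chr12:107965719-107965872 for 5mC (5.43, 5.83, and 4.99) and chr12:107965689-107965796 for 5hmC (3.30, 3.71, and 4.75).

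Among the 22 pairs within the gene spans, 4 combined both from PP to neurons (18.2%), 1 each in Sox5, Bcl11a, Foxp1, and Cux2, and each was deposited under another symbol. In the Sox5 pair, 5mC at chr6:144129341-144129452 is the largest change given above, and 5hmC at chr6:144129318-144129426 had levels of 4.38, 4.61, and 5.12. In the Foxp1 pair, 5mC at chr6:99017359-99017643 was 5.54, 5.54, and 4.69, and 5hmC at chr6:99017492-99017648 was 5.22, 5.69, and 6.24. In the Cux2 pair, 5mC at chr5:121953786-121953940 was 4.73, 4.09, and 3.97, just past 1.5-fold (-0.59), and 5hmC at chr5:121953828-121954009 was 4.11, 4.35, and 5.20.

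**Figure D5:**
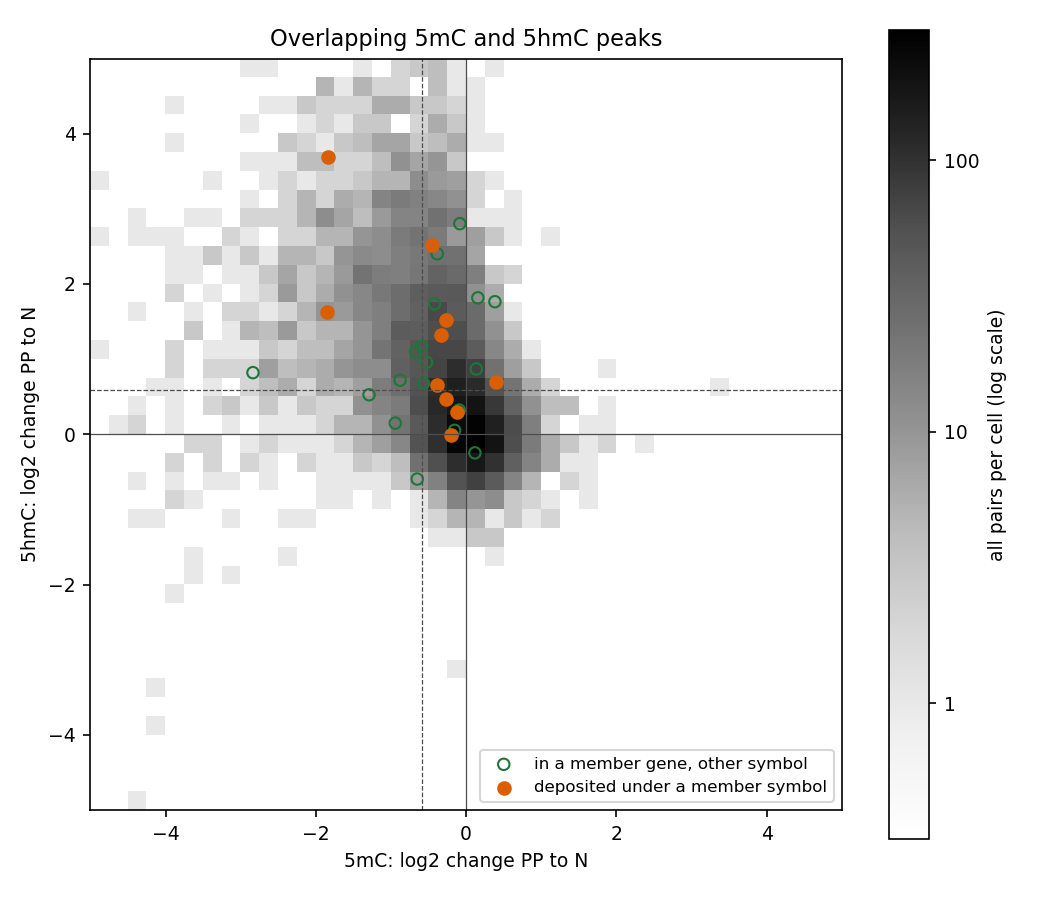
Log2 change from PP to N of overlapping 5mC (x axis) and 5hmC (y axis) peaks, with all pairs as grey cells shaded by number on a log scale, pairs under a member symbol in orange, and pairs within a member gene under another symbol as green rings. Dashed lines mark 1.5-fold lower 5mC and 1.5-fold higher 5hmC, and 15 pairs beyond 5 log2 units are not drawn. Of the 10 orange points, 2 lie beyond both dashed lines.

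The place of DP between PP and neurons differed between the marks, as it did over all peaks. At the 17 peaks with lower 5mC, the median level was 4.90 for PP, 4.65 for DP, and 3.40 for neurons, and the median share of the change that was reached in DP was 13.3% (25.4% over all 5643 peaks lower in the same way). Only 2 of the 17 were also lower from PP to DP, and 14 were from DP to neurons. At the 22 peaks with higher 5hmC, the median level was 3.68, 4.16, and 4.93, and 34.3% of the change was reached in DP (39.5% over all 10484 such peaks). Of these 22, 7 were also higher from PP to DP, all of them peaks of Cux2, and 16 were higher from DP to neurons.

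Expression and 5mC can be set side by side gene by gene. Tbr1, Bcl11b, Sox5, and Cux2 were the 4 genes with the largest log2 expression ratios of neurons over PP (6.54, 5.06, 3.56, and 2.87). From PP to neurons, lower 5mC was found under the symbol for Tbr1 (1 of 2 peaks), Bcl11b (8 of 21), and Cux2 (8 of 17) but not for Sox5 (0 of 3). Within the span, it was found for Sox5 (20 of 30), Bcl11b (7 of 10), and Cux2 (9 of 25) but not for Tbr1, which had no peak there. Over all peaks, 10.2% were lower. Of the genes with smaller ratios, Fezf2 (1.71) had no 5mC peak by either way of counting, Foxp1 (0.84) had 4 lower peaks in its span, and Rorb (0.42) had none. Cux1, the only gene with a lower expression value in neurons (-1.05), had no 5mC peak that was lower or higher from PP to neurons and 7 of 18 5hmC peaks of its span that were higher. The span counts were chosen after the values by symbol had been seen, and the lower Tbr1 peak lay 64675 bp downstream of its TSS. Of 22 other subtype genes with an expression value (described below), 17 had it highest in neurons. Their median log2 ratio was 2.44, against 2.29 for the 8 members. By symbol, 12.7% of the 5mC peaks of these other subtype genes were lower, against 32.1% of those of the members. For the progenitor factors described below, the median log2 ratio was -4.56, and 19% of their 5mC peaks by symbol were lower, most of them of Sox2. Neither of these other lists was counted by span. With 8 genes and 1 value per cell type, this is a description and no relation was tested.

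Other projection neuron subtype genes and progenitor factors give the setting of these values. Both lists were counted by deposited symbol only, not by span. Of 26 further subtype genes, 20 had a 5mC peak and 21 a 5hmC peak. Of their 118 5mC peaks, 15 were lower and 6 higher from PP to neurons (12.7% and 5.08%, median change of -0.04), near the shares over all peaks. Of their 153 5hmC peaks, 31 were higher and 9 lower (20.3% and 5.88%, against 22.1% and 7.71% of all, median change of -0.05). The genes with the most peaks in 1 direction were Tshz2 (6 of 12 5hmC peaks higher), Myt1l (6 of 18 5hmC peaks higher), Lmo4 (5 of 16 5hmC peaks higher), and Ldb2 (4 of 13 5mC peaks lower). Of 13 progenitor factors, 8 had a 5mC peak and 10 a 5hmC peak, and all 10 with an expression value had it highest in PP or DP. Of their 42 5mC peaks, 8 were lower and 2 higher (19% and 4.76%, against 10.2% and 5% of all, median change of -0.06). Of 55 5hmC peaks, 18 were higher and 2 lower (32.7% and 3.64%, against 22.1% and 7.71%, median change of 0.10). Sox2, a factor of neural stem cells, gave 7 of these 8 lower 5mC peaks and 11 of the 18 higher 5hmC peaks, and Dmrta2 gave 3 of the latter.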

How the data were processed

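Cells of the mouse cortex were sorted into PP, DP, and neurons, and their DNA was barcoded, pooled, and immunoprecipitated for 5mC (MeDIP) or 5hmC (hMeDIP). Per the labels, reads were aligned to mm10 with BWA 0.7.8-r455 and peaks called with SICER 1.1, compared in DiffBind, and annotated with HOMER 4.7. According to the methods, peaks had to be found in all replicates and peaks in repeats were left out. The level columns deposited by the authors hold the log2 mean, per cell type, of normalized read levels over replicates. The expression columns deposited by the authors hold a score per cell type from their earlier RNA-seq, whose scale is not named. The tables also hold the authors' own comparisons (log2 fold changes, p-values, and adjusted p-values), and these were not used. Averaging over replicates before deposition removes the spread, and TMM scaling or centring cannot show a change shared by all peaks.

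All 55085 and 47478 rows were used without a filter. Levels were compared as differences of log2 means minus the median difference over all peaks, and a change of at least 1.5-fold was counted. Expression ratios were taken as log2 of the value plus 1. A 5mC and a 5hmC peak sharing at least 1 bp formed a pair. Spans and promoters came from RefSeq (GRCm38.p6, the assembly of mm10), in which all 9 symbols were matched. No exon or intron positions and no genome sequence were used here, so peaks are given as inside or outside a gene and their sequences are not shown. The counting was tested on simulated levels. The genes named are the 9 members with, per mark, the peak that differed most from PP to neurons, all peaks within 2000 bp of a TSS, pairs that combined lower 5mC with higher 5hmC, and at most 4 genes of each other list. The members and lists were chosen with earlier results of these data known. Python 3.11.15, pandas 2.3.3, and numpy 2.4.6 were used.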

Additional observations from a re-analysis of the deposited data

How the results depend on the processing

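No paired analysis was possible because the tables hold 1 mean per cell type and no replicate values. Of 165 recomputed counts and medians, 101 stayed within 1.5 times the reported count or within the 95% order-statistic interval of the reported median, and 64 did not. The 5hmC median from PP to DP (0.03) lay near 0 and turned to -0.12 for peaks at or above the median level of the table, to -0.10 for peaks inside the member gene, and to -0.0065 without Cux2. The 5hmC median from PP to N was 0.12 in all 3 of these settings, against 0.30. All other medians kept their sign. The 48 expression ratios with a pseudocount of 0.1 or 10 moved by at most 0.030. Without centring, the 5mC median from PP to N was -0.51 and 1 5mC peak was higher from DP to N.
With a 5/4-fold minimum, 5mC counts were 9 lower and 5 higher (PP to DP), 25 and 6 (DP to N), and 28 and 3 (PP to N). 5hmC counts were 16 higher (PP to DP), 7 lower and 30 higher (DP to N), and 6 lower (PP to N), and 5 pairs combined both from DP to N and 5 from PP to N. With a 2-fold minimum, they were 0 lower (PP to DP), 10 lower and 0 higher (DP to N), and 11 lower (PP to N) for 5mC. For 5hmC they were 1 lower and 4 higher (PP to DP), 1 lower (DP to N), and 1 lower (PP to N), and 0 pairs combined both from DP to N. Shares over all peaks at these limits were not computed, so no excess over all peaks can be read from these counts.
Among peaks at or above the median level of the table, 5mC counts were 0 lower (PP to DP), 4 lower and 0 higher (DP to N), and 3 lower (PP to N), and 5hmC counts were 1 lower and 0 higher (PP to DP), 3 higher (DP to N), and 1 lower and 5 higher (PP to N). From DP to N, these were 14.8% of 27 member peaks lower for 5mC (against 3.34% of all) and 11.1% of 27 higher for 5hmC (against 7.81%). Fewer peaks entered each of the next counts by construction. Within 50 kb of the TSS, 5mC counts were 3 lower (PP to DP), 10 lower and 1 higher (DP to N), and 11 lower (PP to N), and 5hmC counts were 1 lower from PP to DP and 1 lower from PP to N. For peaks deposited as inside a member gene, 5mC counts were 3, 8, and 7 lower, and 5hmC counts were 0 higher (PP to DP), 1 lower and 9 higher (DP to N), and 8 higher (PP to N). From PP to N, these were 7 of 19 5mC peaks (36.8%, against 10.6% of all peaks inside a gene) and 8 of 28 5hmC peaks (28.6%, against 26.7%). Shares over all peaks within 50 kb of a TSS were not computed.
Leaving out Bcl11b, the gene with the most 5mC peaks, 8 were lower from DP to N and 9 from PP to N. Leaving out Cux2, the gene with the most 5hmC peaks, 1 was higher from PP to DP, 10 from DP to N, and 10 from PP to N, so that the higher 5hmC in DP rested on Cux2. These counts are over fewer peaks, as Bcl11b held 21 of the 53 5mC peaks and Cux2 21 of the 57 5hmC peaks. Over all 5mC peaks, 9.36% were lower from DP to N and 10.2% from PP to N. Over all 5hmC peaks, 11.2% (PP to DP), 16.5% (DP to N), and 22.1% (PP to N) were higher. With an overlap of at least 50% of the shorter peak, 1 pair combined both from PP to N.
Within the RefSeq spans, a count added after seeing the data, 5mC peaks were 12 lower and 3 higher (PP to DP), 33 and 4 (DP to N), and 41 and 2 (PP to N). 5hmC peaks were 24 higher (PP to DP), 5 lower and 41 higher (DP to N), and 7 and 55 (PP to N), and 1 pair combined both from PP to DP and 4 from PP to N. The cause of these differences was not tested, and the depth behind the levels is unknown.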

Other observations

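The Sox5 span held a stretch in which the direction of 5mC was nearly uniform. Of its 28 5mC peaks deposited under 4933415D12Rik, the change from PP to neurons ran from -2.84 to 0.12, and neurons had the lowest level at peaks of both high and low mean level. The peak at chr6:143902151-143902343 had levels of 5.81 for PP, 5.87 for DP, and 5.50 for neurons and changed least among those below 0 (-0.13). In the same span, 5hmC was lower in neurons at chr6:144066316-144066459, with levels of 4.61, 4.23, and 3.11.

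In Cux2, 1 5hmC peak of the span was at least 1.5-fold lower in neurons than in PP. At chr5:121968400-121968629, deposited under Gm15637, 5hmC was 5.40 for PP, 4.63 for DP, and 3.52 for neurons (-1.79), whereas 22 of the 35 peaks of the span were higher by at least 1.5-fold and the other 6 peaks below 0 stayed within 1.5-fold. It resembled the Bcl11b peak chr12:107928860-107929025 in having its highest level in PP and its lowest in neurons.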
